A study of Homo sapiens with 4 samples.

Results

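The 45 interferon-stimulated genes described here were found by symbol among the 56655 gene symbols of the RNA-seq count tables, and were followed by subclass between control and FOXK2-directed hairpin cells. The cells were OVCAR5, an established human ovarian cancer line, stably transduced with lentiviral particles. The control group (shCtrl, n = 2 libraries) carried a non-targeting short hairpin RNA, and the other group (shFOXK2, n = 2 libraries) carried a hairpin against FOXK2, a forkhead transcription factor. Cells trim such a hairpin to a short guide RNA, which lowers the amount of transcripts that pair with it. The labels name no interferon treatment for either group, and both were grown in serum-containing medium. The comparison rests on a single cell line and, by the study's own description, a single hairpin against FOXK2, so an effect of that hairpin on other transcripts cannot be told apart from an effect of FOXK2. The series design calls the libraries biological duplicates, without saying whether they came from separate transductions.

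Interferons are secreted proteins that cells release on sensing viral or misplaced nucleic acids. Type I and type III interferons act through receptor-bound JAK1 and TYK2 to form a complex that includes STAT2 and IRF9 and binds the interferon-stimulated response element (ISRE) in promoters, while interferon gamma acts mainly at the gamma-activated site (GAS). The induced proteins degrade viral RNA, block viral entry or assembly, conjugate the ubiquitin-like protein ISG15, or amplify the pathway itself, and tumor cells often express many of them without added interferon.

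Library totals ran from 14284005 to 21950873 counts, so that 3 counts corresponded to 0.134 to 0.211 CPM, that is, counts relative to library size, with library factors from TMM, a trimmed mean of log ratios. Mitochondrial genes took 6.71% to 9.58% of counts. FOXK2, the hairpin target, had 1796 and 1499 counts in shCtrl libraries against 1086 and 1084 with shFOXK2. In CPM the shFOXK2 mean was 78.2% of the control mean, with a log2 fold change of −0.36 ± 0.25 (SE) and an edgeR quasi-likelihood p-value of 0.257 after Benjamini-Hochberg adjustment, which does not pass 0.05. The FOXK2 estimate was −0.07 with an offset on the GC content of transcripts and −0.03 with one on A content. These offsets also moved the median of all genes, by 0.18 and 0.25. For OVCAR5 the study itself reported lower FOXK2 mRNA by quantitative PCR and lower FOXK2 protein by western blot. Keratin genes and EPCAM, which mark epithelial cells, had at least 1142 counts in every library. The cadherin gene CDH1 fell to 13 and 24 counts from 459 and 260. Of 4 ovarian serous markers, WT1 had at most 2 counts, PAX8 (351 and 335 counts against 156 and 162) and MUC16 (397 and 145 against 0 and 8) fell, and MSLN (75 and 52 against 112 and 116) rose. Of 7 leukocyte markers, the defining genes PTPRC, CD3E, CD68 and CD163 had at most 3 counts in every library, although the summed level of all 7, carried by CD14 and ITGAM, was 24.7 to 30.4 CPM in shCtrl and 9.35 to 10.5 CPM in shFOXK2. Of 6 fibroblast and endothelial markers 3 fell, namely PDGFRB (127 and 87 counts against 2 and 8), PECAM1 (154 and 90 against 9 and 29) and CDH5 (76 and 33 against 0 and 0), and the summed level of all 6 was 26.5 to 30.8 CPM in shCtrl and 15.2 to 16.7 CPM in shFOXK2. The part of these markers in the results was not tested.

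All 45 genes passed the filter on low counts. Together they held 3288 and 3806 CPM in the shCtrl libraries and 1579 and 1673 CPM in the shFOXK2 libraries, and no shFOXK2 library reached a shCtrl library. By edgeR's quasi-likelihood test, 27 of 45 (60.0%) fell in shFOXK2, against 22.7% of the 16417 genes tested, and 1 of 45 (2.22%), SAMD9, rose, against 25.7%, although it did not pass with an offset on the GC content of transcripts and its direction turned with one on A content. In bulk RNA a lower level in each cell and fewer cells expressing a gene cannot be told apart. Neither shFOXK2 library reached a shCtrl library for 31 of 45 genes (68.9%), against 36.2% of all genes. The median log2 fold change was −1.12 over the 45 genes and 0.04 over all genes tested. Of the 27 that fell, 12 fell by more than 2 on the log2 scale and 7 of these by more than 3. The subclasses were uneven, with every OAS, MX and GBP gene listed among those that fell and none of the IFIT genes. The plot of levels by library shows where the groups separate.

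**Figure D1:**
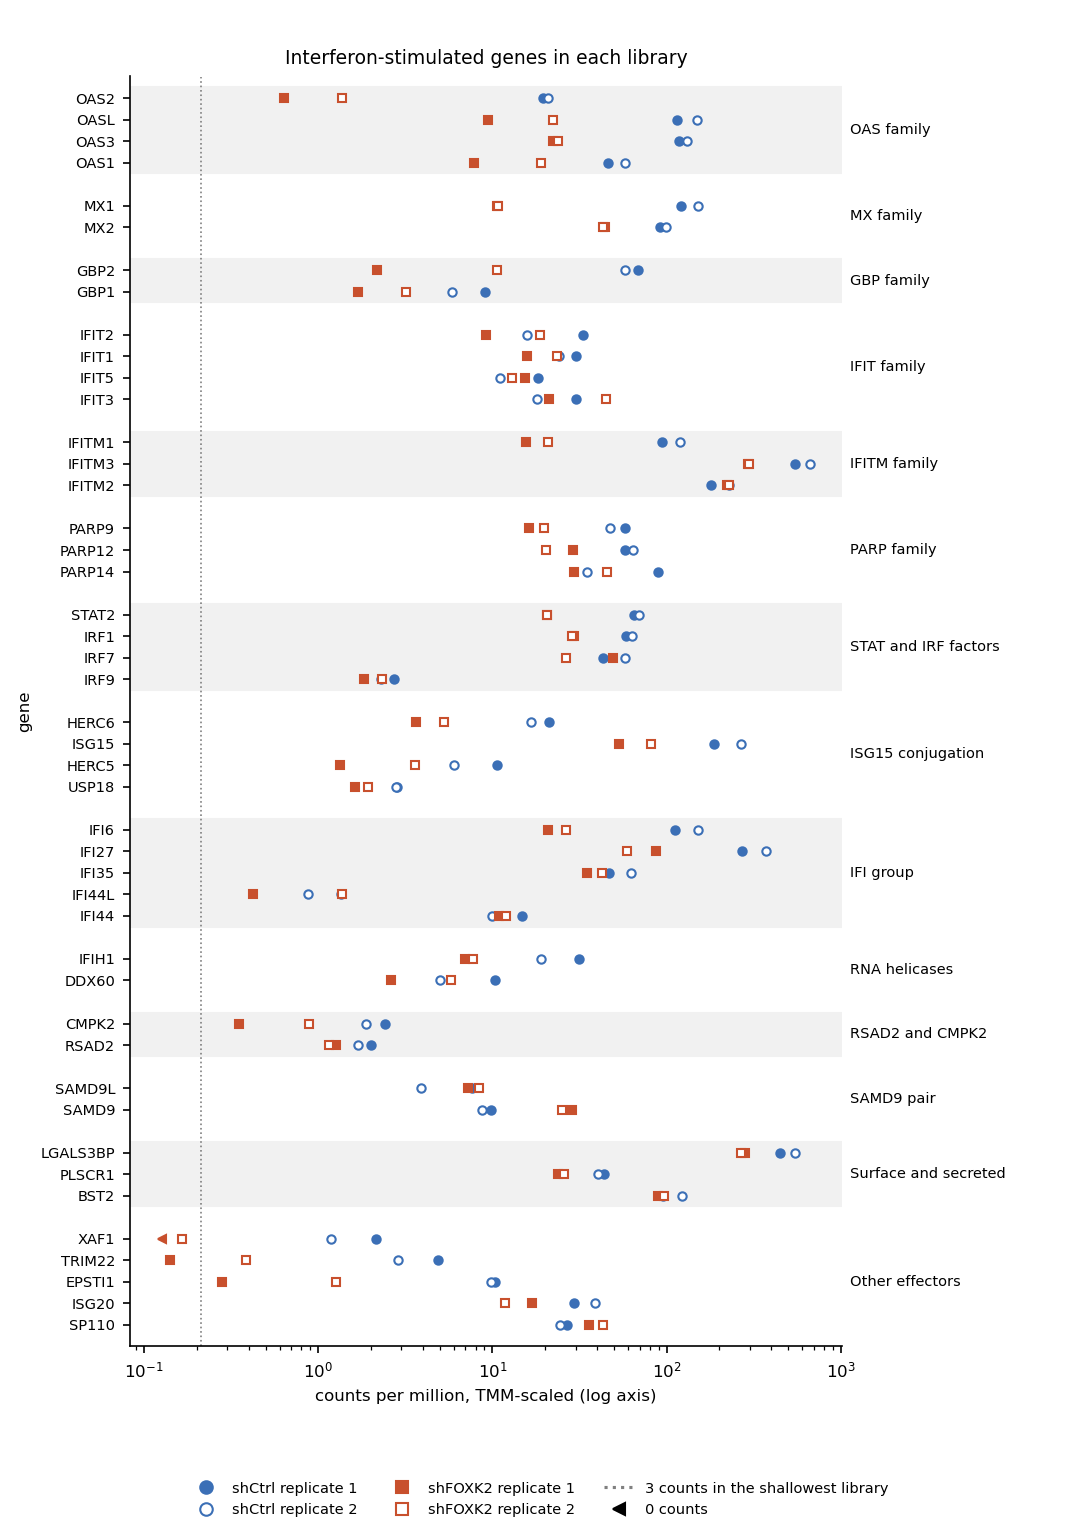
Each row is a gene, grouped by subclass, and each symbol is 1 library's level in TMM-scaled CPM on a log axis (circles, shCtrl; squares, shFOXK2; filled, replicate 1; open, replicate 2). The dotted line marks 3 counts in the shallowest library and the triangle a library at 0 counts. OAS2, MX1, GBP2 and EPSTI1 show a wide gap between groups, the IFIT genes overlap or nearly touch, and SAMD9 lies higher in both shFOXK2 libraries.

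What the genes share in sequence was looked at in the promoters that RefSeq gives for GRCh38.p14, from 250 bases before to 50 after the start of each gene. Promoters were held for 36 of the 45 genes, and those of IFIT2, IFITM2, MX2, OAS2, OASL, IRF7, USP18, TRIM22 and GBP2 were not used here. The ISRE core, spelled GAAANNGAAA and searched on both strands, was in 25 of 36 promoters (69.4%), against 3.65% of 27305 promoters of the same length. As the genes were listed for being interferon-stimulated, this share describes the list and is not a result of these libraries. The longer spelling with C and T added at the 3′ end, which is part of the same match, was in 15 of 36 (41.7%), against 0.271%. The GAS spelling TTCNNNGAA, which can overlap an ISRE core, was in 12 of 36 (33.3%), against 7.94%. The forkhead spelling TGTTTAC was in 1 of 36 (2.78%), that of SAMD9L, against 3.44%. Of 43 ISRE core matches, 42 began before the gene start, at a median of 92 bases before it, and 14 genes had more than 1. Matches that overlap, such as those 130 and 124 bases before the start of BST2, were counted separately.

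The following stretches show the core in genes that differ in how they responded. Each is written 5′ to 3′ on the strand of its gene, with the match in capitals, so that a match on the opposite strand reads as its reverse complement. The first 6 are from genes that fell.
ISG15 (chr1:1013376-1013413, plus strand): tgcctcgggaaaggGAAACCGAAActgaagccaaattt
IFITM1 (chr11:314020-314057, plus strand): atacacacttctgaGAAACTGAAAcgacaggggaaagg
IFITM3 (chr11:320872-320909, minus strand): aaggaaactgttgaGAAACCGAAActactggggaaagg
OAS3 (chr12:112938317-112938354, plus strand): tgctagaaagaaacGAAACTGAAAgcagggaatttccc
EPSTI1 (chr13:42992268-42992305, minus strand): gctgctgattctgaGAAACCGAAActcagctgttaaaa
PARP9 (chr3:122564318-122564355, minus strand): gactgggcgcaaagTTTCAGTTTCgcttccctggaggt
The next 3 are from IFIT genes, which did not pass the test, and the last is from SAMD9, which rose.
IFIT1 (chr10:89392506-89392543, plus strand): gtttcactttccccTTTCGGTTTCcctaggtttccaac
IFIT3 (chr10:89327861-89327898, plus strand): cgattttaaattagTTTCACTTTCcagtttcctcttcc
IFIT5 (chr10:89414509-89414546, plus strand): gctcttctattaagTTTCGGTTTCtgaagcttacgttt
SAMD9 (chr7:93118092-93118129, minus strand): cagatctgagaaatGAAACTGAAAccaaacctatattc

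The core was thus present on both sides of the comparison. It was in 16 of the 22 promoters of genes that fell and in 9 of the 14 promoters of genes that did not. All 3 IFIT promoters held it, as did all 3 PARP promoters and both IFITM promoters, and 1 of 2 OAS promoters did. None of the 3 promoters of the STAT and IRF group had an ISRE core, while IRF1 and IRF9 had the GAS spelling. For IRF1 it stood 124 bases before the gene start, in capitals here.
IRF1 (chr5:132490875-132490911, minus strand): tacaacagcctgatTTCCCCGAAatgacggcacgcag
A match describes letters in the reference sequence, and binding at these places was not measured in these libraries.

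The OAS family fell in full. OAS1, OAS2 and OAS3 make 2′-5′ oligoadenylates on binding double-stranded RNA, and OASL lacks that enzyme activity and binds the RNA sensor RIG-I. OAS2 had 438 and 334 counts in shCtrl libraries against 9 and 25 with shFOXK2, which was 4.96% of the control mean in CPM, with an estimate on the log2 scale of −4.29 ± 0.40 (adjusted p = 5.12e-06; errors that follow are SE and adjusted p-values are from edgeR). OASL, at 2555 and 2396 counts in shCtrl, was at 134 and 403 in shFOXK2, with a log2 fold change of −3.06 ± 0.36 (adjusted p = 3.18e-05). Their groups lay far apart, but the shFOXK2 libraries differed from each other, with OASL 2.35-fold and OAS2 2.17-fold higher in replicate 2 than in replicate 1. OAS3 had 2634 and 2110 counts against 317 and 436, with close replicates, and a log2 fold change of −2.43 ± 0.25 (adjusted p = 1.24e-05). OAS1 had 1031 and 928 counts against 112 and 346 and a log2 fold change of −1.94 ± 0.36 (adjusted p = 0.000726). OAS1, OAS3 and OAS2 lie next to each other on the plus strand of chromosome 12 (hg38, chr12:112905856-113011723), and OASL lies apart on the same chromosome. The median of the family was −2.74. Without shFOXK2 replicate 2 the estimates were −5.01 for OAS2, −3.84 for OASL and −2.75 for OAS1.

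The MX proteins are dynamin-like GTPases that trap viral nucleoprotein, and MX2 is known for acting on HIV. MX1 had 2698 and 2417 counts in shCtrl libraries against 152 and 196 with shFOXK2, and its log2 fold change was −3.66 ± 0.28 (adjusted p = 1.13e-06). MX2, next to it on chromosome 21, had 2040 and 1594 counts against 629 and 788 and a log2 fold change of −1.12 ± 0.24 (adjusted p = 0.00195). In both genes the shFOXK2 replicates were almost equal in CPM, at 10.7 and 10.8 for MX1 and 44.2 and 43.3 for MX2. MX1 was left at 7.90% of its control level and MX2 at 45.9%.

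Guanylate-binding proteins are large GTPases, induced mostly by interferon gamma, that coat the vacuoles of intracellular microbes. GBP2 had 1536 and 931 counts in shCtrl libraries against 31 and 193 with shFOXK2, a log2 fold change of −3.29 ± 0.50 (adjusted p = 0.000176). GBP1 had 203 and 94 counts against 24 and 58 and a log2 fold change of −1.60 ± 0.40 (adjusted p = 0.00481). The shFOXK2 replicates of GBP2 stood 4.87-fold apart in CPM, and neither reached the lower shCtrl library. Its estimate was −4.89 without shFOXK2 replicate 2 and −2.61 without replicate 1. Of the transcript words of 50 bases in GBP1, 14.04% also occur in other genes, mostly in the pseudogene GBP1P1, which had at most 3 counts. The low count of GBP1P1 does not settle whether reads that fit both were left unassigned. GBP4, a paralog outside the list of 45, had 8 and 59 counts in shFOXK2 against 561 and 370 (−3.61 ± 0.51 on the log2 scale, adjusted p = 0.000109), and GBP3 did not pass the test at 510, 206, 332 and 256 counts.

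The IFIT proteins bind viral RNA that lacks the host cap modification, and their genes are among the quickest to respond to interferon. None of the 4 passed the edgeR test, none had an unadjusted p under 0.05, and DESeq2 and the edgeR exact test called none. This rested on the processing, since a GC offset called 3 of the 4 lower, an A-content offset called 2, and the fits without a filter and with crossed replicate numbers called IFIT2. IFIT1 had 674 and 387 counts in shCtrl libraries against 224 and 430 with shFOXK2, and its shFOXK2 libraries, at 15.7 and 23.6 CPM, lay just under the lower shCtrl library at 24.1 CPM. IFIT2 had 738 and 254 counts against 130 and 343, and the groups overlapped. IFIT3 had 677 and 289 against 302 and 820, and IFIT5 had 409 and 177 against 219 and 236, again with overlap. The log2 fold changes were −0.46 ± 0.29 for IFIT1, −0.80 ± 0.39 for IFIT2, 0.45 ± 0.36 for IFIT3 and −0.06 ± 0.32 for IFIT5, with adjusted p-values of 0.205, 0.106, 0.313 and 0.902. These genes were far above 3 counts in every library, but their replicates stood apart. All 4 were higher in shCtrl replicate 1 than in replicate 2, by 1.25-fold to 2.09-fold, and IFIT2 and IFIT3 differed by 2.06-fold and 2.12-fold between the shFOXK2 replicates. IFIT2 passed as lower without shCtrl replicate 2 or shFOXK2 replicate 2 (−1.31 and −1.45), and IFIT3 passed as higher without shCtrl replicate 1 or shFOXK2 replicate 1 (0.85 and 0.87). They lie in a cluster on chromosome 10 (hg38, chr10:89283694-89421605). That the IFIT genes changed less than the OAS genes was not tested as a difference, since genes are not replicates of a family.

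IFITM proteins sit in cell and endosomal membranes and hinder the fusion of enveloped viruses. IFITM1 had 2100 and 1922 counts in shCtrl libraries against 221 and 379 with shFOXK2 and fell by 2.55 on the log2 scale (SE 0.28, adjusted p = 1.66e-05). IFITM3, the most counted of the 45 genes, had 12220 and 10699 counts against 4186 and 5421 and fell by 1.04 (SE 0.23, adjusted p = 0.00260). IFITM2, whose gene lies beside that of IFITM1 on chromosome 11, had 4009 and 3645 counts against 3182 and 4138, with overlapping groups and a log2 fold change of 0.15 ± 0.23 (adjusted p = 0.623). IFITM2 passed as higher with the GC offset (0.46, adjusted p = 0.0400) and the A-content offset (0.50, adjusted p = 0.0322). Reads of these 3 genes can also match another annotated gene. Of their words of 50 bases, which is the read length, 55.1% in IFITM1, 20.8% in IFITM3 and 12.02% in IFITM2 do so. For IFITM1 the match was mostly an overlapping gene on the same strand (50.7%), which was also the top match for IFITM2 (7.21%). The top match for IFITM3 was IFITM1 (17.4%). Part of the reads of these genes may thus have been dropped by the counter.

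PARP9, PARP12 and PARP14 belong to the ADP-ribosyl transferase family, and PARP9 acts with the ubiquitin ligase DTX3L. PARP9 had 1280 and 759 counts in shCtrl libraries against 232 and 360 with shFOXK2, with a log2 fold change of −1.54 ± 0.27 (adjusted p = 0.000460). DTX3L, which lies between PARP9 and PARP14 on chromosome 3 and is not among the 45, fell by 1.35 (SE 0.27, adjusted p = 0.00129). Of 7 tested relatives or partners of the listed families outside the 45, 2 (28.6%) fell, GBP4 and DTX3L, against 22.7% of all genes. GBP3, IFITM10, PARP10, PARP11 and ZC3HAV1 did not pass. PARP12 had 1282 and 1026 counts against 413 and 372, with a log2 fold change of −1.30 ± 0.27 (adjusted p = 0.00157). PARP14 had 1990 and 564 counts in shCtrl libraries against 419 and 830 with shFOXK2. Its shCtrl libraries differed by 2.54-fold in CPM, the widest gap between controls among the 45 genes, and the group difference did not pass (log2 fold change −0.73 ± 0.37, adjusted p = 0.124). PARP14 was at 0.060 without shCtrl replicate 1, and passed as lower without shCtrl replicate 2 (−1.32) or shFOXK2 replicate 2 (−1.11), with the A-content offset (−1.01) and without a filter (−0.84).

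Among the factors that transmit the signal, STAT2 and IRF1 fell and IRF7 and IRF9 did not pass the test. STAT2, a subunit of the ISRE-binding complex, had 1446 and 1110 counts in shCtrl libraries against 292 and 374 with shFOXK2, or 64.8 and 69.1 CPM against 20.5 and 20.5, with a log2 fold change of −1.71 ± 0.25 (adjusted p = 0.000151). IRF1, a factor induced by interferon gamma, had 1298 and 1012 counts against 419 and 519 and a log2 fold change of −1.06 ± 0.25 (adjusted p = 0.00334). Of the 50-base words of IRF1, 15.7% also occur in other transcripts, chiefly an antisense RNA, and the strand setting of the counting was not stated. IRF7, which drives the amplification of type I interferon, had 963 and 921 counts against 698 and 482, with the groups overlapping in CPM (log2 fold change −0.41 ± 0.31, adjusted p = 0.288), although it passed as lower without shFOXK2 replicate 1 (−0.95). IRF9 had 61 and 37 counts against 26 and 42 (log2 fold change −0.28 ± 0.38, adjusted p = 0.563). This gene may be poorly measured, because in GENCODE v44 92.8% of its 50-base words also belong to a readthrough gene. Reads in both are normally not assigned, but the annotation used for the counting was not given, so such a loss was not tested.

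**Figure D2:**
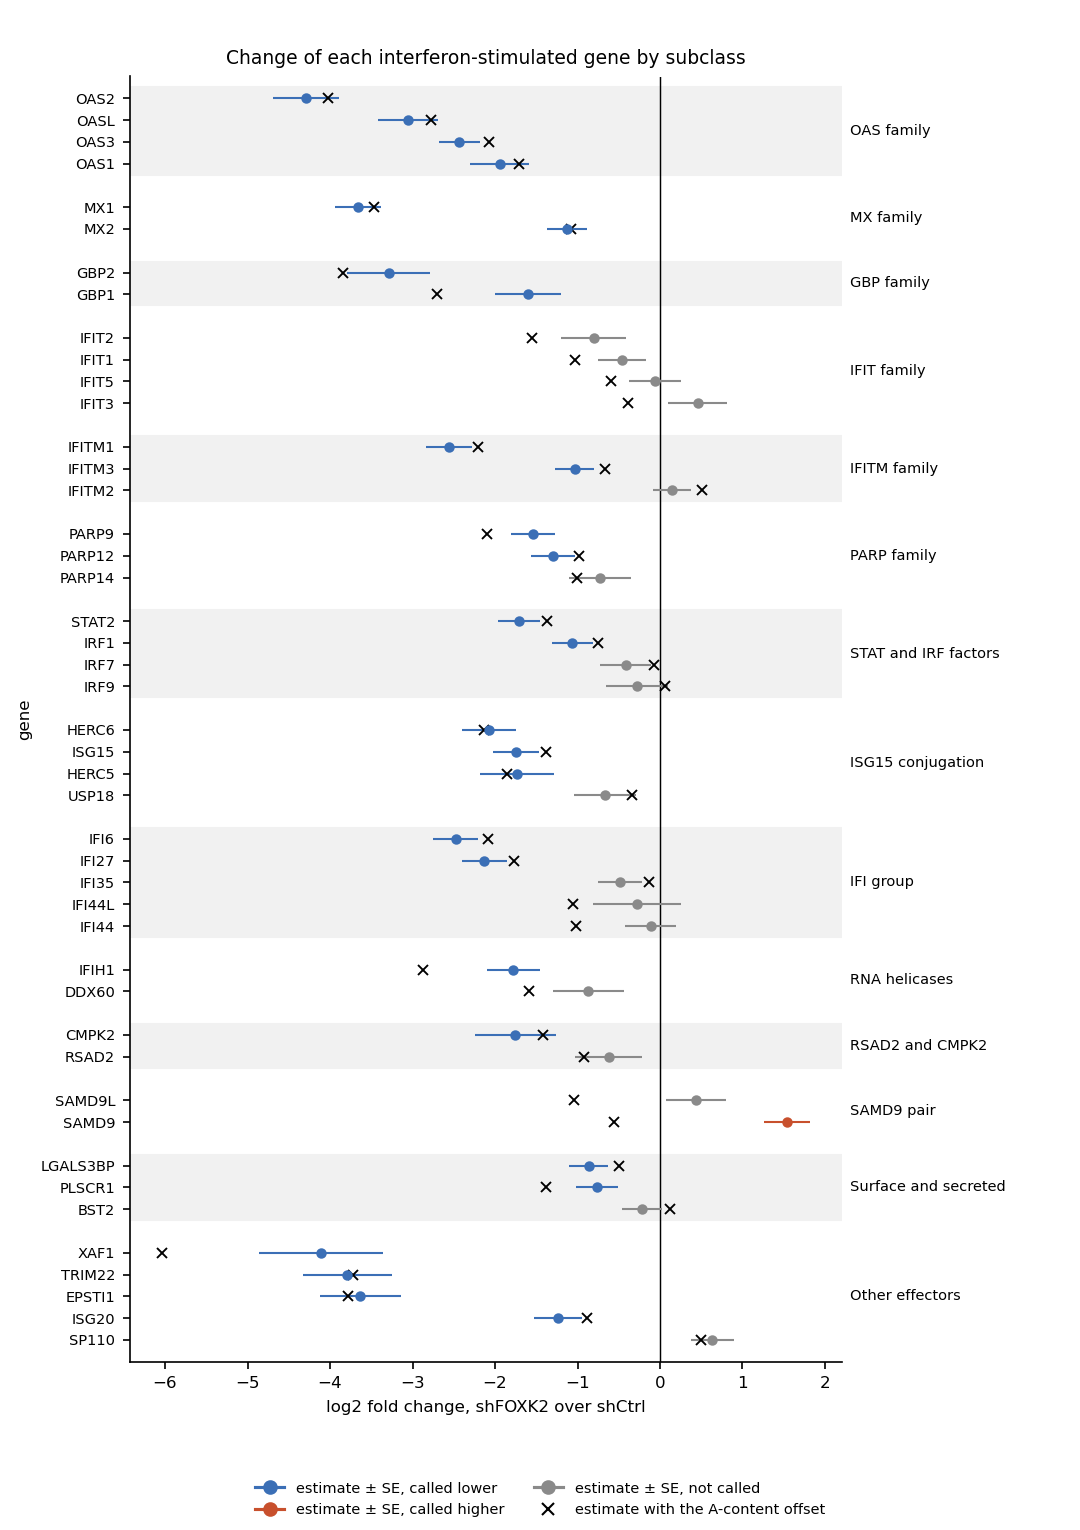
Each row is a gene and the horizontal axis is the log2 fold change of shFOXK2 over shCtrl (dots with bars, edgeR estimate ± SE from 2 libraries a group; blue, adjusted p under 0.05 and lower; orange, adjusted p under 0.05 and higher; grey, not past the threshold). Crosses give the estimate after a lowess correction for transcript A content (the offset). OAS, MX and GBP genes lie left of 0 under both estimates, the IFIT crosses lie left of their dots, and SAMD9 moves from 1.54 to −0.56.

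ISG15 is a ubiquitin-like protein that is attached to other proteins, by HERC5 as the ligase and with USP18 as the protease that removes it. ISG15 had 4177 and 4282 counts in shCtrl libraries against 759 and 1485 with shFOXK2, and its log2 fold change was −1.75 ± 0.28 (adjusted p = 0.000254). HERC5 had 236 and 96 counts against 19 and 65, and HERC6, its neighbour on chromosome 4, had 472 and 266 against 52 and 96. They fell by 1.73 (SE 0.45, adjusted p = 0.00629) and by 2.07 (SE 0.33, adjusted p = 0.000230) on the log2 scale, and without shFOXK2 replicate 2 the estimate for HERC5 was −2.66. The enzymes that act before the ligase, which are not among the 45, went the same way. UBA7, the activating enzyme, fell by 2.71 (SE 0.34, adjusted p = 4.28e-05), and UBE2L6, the conjugating enzyme, fell by 3.04 (SE 0.30, adjusted p = 7.74e-06). USP18 was lower in both shFOXK2 libraries, at 23 and 35 counts against 63 and 45, but did not pass (log2 fold change −0.66 ± 0.38, adjusted p = 0.162). Of its 50-base words, 52.9% are shared with other genes, in part with USP41, which had 0 counts. That 0 does not settle whether reads that fit both genes were left unassigned.

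The genes with IFI names are a mixed set. IFI6, a mitochondrial and endoplasmic reticulum protein, had 2498 and 2423 counts in shCtrl libraries against 298 and 479 with shFOXK2 (log2 fold change −2.47 ± 0.27, adjusted p = 1.82e-05). IFI27, a related protein, had 6043 and 5953 counts against 1241 and 1084 (log2 fold change −2.13 ± 0.27, adjusted p = 5.21e-05). Both were separated from controls by several times their replicate spread. IFI35 had 1037 and 1000 counts against 499 and 778 and did not pass (adjusted p = 0.148), although both shFOXK2 libraries lay below the shCtrl libraries in CPM. The neighbours IFI44 and IFI44L overlapped between groups, with 330, 159, 155 and 219 counts for IFI44 and 30, 14, 6 and 25 for IFI44L, in the order shCtrl then shFOXK2. IFI44 passed as lower with the GC offset (−0.65, adjusted p = 0.0313) and the A-content offset (−1.02, adjusted p = 0.00544), and IFI35 passed without shCtrl replicate 1 (−0.71).

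IFIH1 and DDX60 are RNA helicases, and IFIH1 encodes the sensor MDA5 for long double-stranded RNA. IFIH1 had 701 and 305 counts in shCtrl libraries against 99 and 141 with shFOXK2 and fell by 1.78 on the log2 scale (SE 0.32, adjusted p = 0.000585). DDX60 had 231 and 80 counts against 37 and 105, with overlap (log2 fold change −0.87 ± 0.43, adjusted p = 0.115). DDX60 passed as lower with the GC offset (−1.40), the A-content offset (−1.59), no filter (−0.97) or crossed replicate numbers (−0.89), and without shCtrl replicate 2 (−1.37) or shFOXK2 replicate 2 (−1.60). RSAD2, or viperin, makes a chain-terminating nucleotide from CTP, and CMPK2 is a nucleotide kinase whose gene stands head to head with it on chromosome 2, with starts 1078 bases apart. CMPK2 had 54 and 30 counts against 5 and 16 and fell by 1.75 (SE 0.49, adjusted p = 0.00920), but did not pass without shCtrl replicate 1 (−1.59, adjusted p = 0.0597), and its estimate without shFOXK2 replicate 2 was −2.63. RSAD2 had 45 and 27 counts against 18 and 21 and did not pass (log2 fold change −0.62 ± 0.41, adjusted p = 0.226). The 5′ ends of this pair overlap on opposite strands, in 9.91% of the 50-base words of CMPK2. Both stayed under 3 CPM in every library, so a change of the size seen for RSAD2 was hard to detect at this depth.

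SAMD9 was the 1 gene of the list that rose. It and its paralog SAMD9L, neighbours on chromosome 7, encode large cytoplasmic proteins that restrict poxviruses and slow cell growth. SAMD9 had 219 and 139 counts in shCtrl libraries against 406 and 458 with shFOXK2, or 9.82 and 8.66 CPM against 28.5 and 25.2, and rose by 1.54 ± 0.28 on the log2 scale (adjusted p = 0.000658). SAMD9L had 170 and 62 counts against 103 and 152, with overlapping groups (log2 fold change 0.43 ± 0.36, adjusted p = 0.348). SAMD9 has the highest A content of the 45 transcripts, at 36.3%. With the GC offset its log2 fold change was 0.59 (adjusted p = 0.0717) and that of SAMD9L −0.16. With an offset on A content its log2 fold change became −0.56 (adjusted p = 0.0757) and that of SAMD9L −1.05 (adjusted p = 0.0136), so the call and the direction of this pair depend on that choice.

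Of the surface and secreted proteins, LGALS3BP, a glycoprotein that binds galectins, had 10039 and 8776 counts in shCtrl libraries against 4000 and 4842 with shFOXK2 (log2 fold change −0.86 ± 0.23, adjusted p = 0.00761). PLSCR1, a membrane protein named for phospholipid scrambling, had 972 and 649 counts against 338 and 467 (log2 fold change −0.77 ± 0.25, adjusted p = 0.0237). PLSCR1 had the highest adjusted p-value of the genes that fell and did not pass without shFOXK2 replicate 1 or 2 (adjusted p = 0.108 and 0.0744) or with a replicate block (adjusted p = 0.0557). BST2, or tetherin, which holds budding virus at the cell surface, overlapped between groups at 2120, 1956, 1277 and 1756 counts (log2 fold change −0.22 ± 0.24, adjusted p = 0.477).

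The other effectors held several of the lowest values. TRIM22, a ubiquitin ligase that restricts viruses, had 108 and 46 counts in shCtrl libraries against 2 and 7 with shFOXK2, and the ratio of summed, scaled counts was 14.5 (95% interval 7.42 to 32.2, counting error only). XAF1, which antagonises the apoptosis inhibitor XIAP, had 48 and 19 counts against 0 and 3, a ratio of 18.9 (95% interval 6.19 to 93.8). Their adjusted p-values were 0.000116 and 0.000627, and fitted fold changes at such counts depend on the prior count of the model. XAF1 shares 73.9% of its 50-base words with the antisense gene PRAL, which had at most 1 count. The strand setting of the counting was not stated, so reads in both genes may have been left unassigned. The low count of PRAL does not settle this. EPSTI1, named for induction by epithelial-stromal contact, had 231 and 158 counts against 4 and 23 (log2 fold change −3.63 ± 0.49, adjusted p = 7.52e-05). ISG20, an exonuclease for single-stranded RNA, had 654 and 621 counts against 241 and 216 (log2 fold change −1.24 ± 0.29, adjusted p = 0.00353). Without shFOXK2 replicate 2 the estimates were −5.16 for EPSTI1, −4.75 for TRIM22 and −7.91 for XAF1, and without replicate 1 they were −3.02 for EPSTI1 and −3.34 for XAF1. SP110, a nuclear body protein, was higher in both shFOXK2 libraries, with 596 and 392 counts against 513 and 788, but did not pass (log2 fold change 0.63 ± 0.26, adjusted p = 0.0572). It passed as higher with at least 10 counts required in every library (adjusted p = 0.0469) and with crossed replicate numbers (adjusted p = 0.0441).

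Levels between genes were compared as CPM per kilobase of exon. In shCtrl the order was led by ISG15 at 262, IFITM3 at 213, LGALS3BP at 146 and IFI6 at 140. In shFOXK2 it was led by IFITM2 at 140 and IFITM3 at 104, followed by BST2 at 84.6, LGALS3BP at 79.95 and ISG15 at 77.8, whose libraries differed by 1.53-fold and so do not fix an order among these last 3. On this scale IFITM2 stood first in shFOXK2, and MX1 went from place 15 to place 33 of 45. Exon length was the union of annotated exons. With the canonical transcript in its place, IFITM3 led in shCtrl and ISG15 took place 3, and in shFOXK2 IFITM3 led at 485, ahead of IFITM2 at 224, so the place of IFITM2 depends on the length used. The places of MX1 do too, and were 9 in shCtrl and 27 in shFOXK2 with the canonical transcript.

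The difference between the shCtrl replicates followed base composition. Between the shFOXK2 libraries, 35 of 45 members were higher in replicate 2 than in replicate 1, and a link of this to composition was not tested. In the 16 genes with at least 30% A in the transcript, which include all IFIT and GBP genes and the SAMD9 pair, shCtrl replicate 1 stood above replicate 2 by a median of 0.68 on the log2 scale, against 0.47 for all genes of that composition. In the 9 genes under 22% A the median was −0.41, against −0.24 for all genes. Between groups, all genes with at least 30% A were centred on a log2 fold change of 0.75 and the 16 members on −0.75, of which 6 fell, 9 did not pass and SAMD9 rose. Of the 11 members with 26% to 30% A, 9 fell, with a median of −2.07 against −0.05 for all genes there. Over genes of every composition, 22.7% fell and 25.7% rose, and these shares were not counted within each range of A content. The IFIT transcripts hold 30.9% to 32.0% A and the OAS transcripts 23.7% to 26.7%, so family and composition move together, and the part of composition in the contrast between them was looked at only through offsets. With the A-content offset, IFIT1 (log2 fold change −1.03, adjusted p = 0.00736) and IFIT2 (−1.55, adjusted p = 0.00542) passed as lower, IFIT3 and IFIT5 did not, and the family medians were −0.81 for the IFIT and −2.42 for the OAS genes. With the GC offset, IFIT1 (−0.69, adjusted p = 0.0342), IFIT2 (−1.001, adjusted p = 0.0447) and IFIT5 (−0.79, adjusted p = 0.0172) passed as lower and IFIT3 did not, and the same 3 passed with the GC offset and the replicate block together. All 4 OAS genes, both MX genes and both GBP genes passed as lower under the A-content offset as well.

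**Figure D3:**
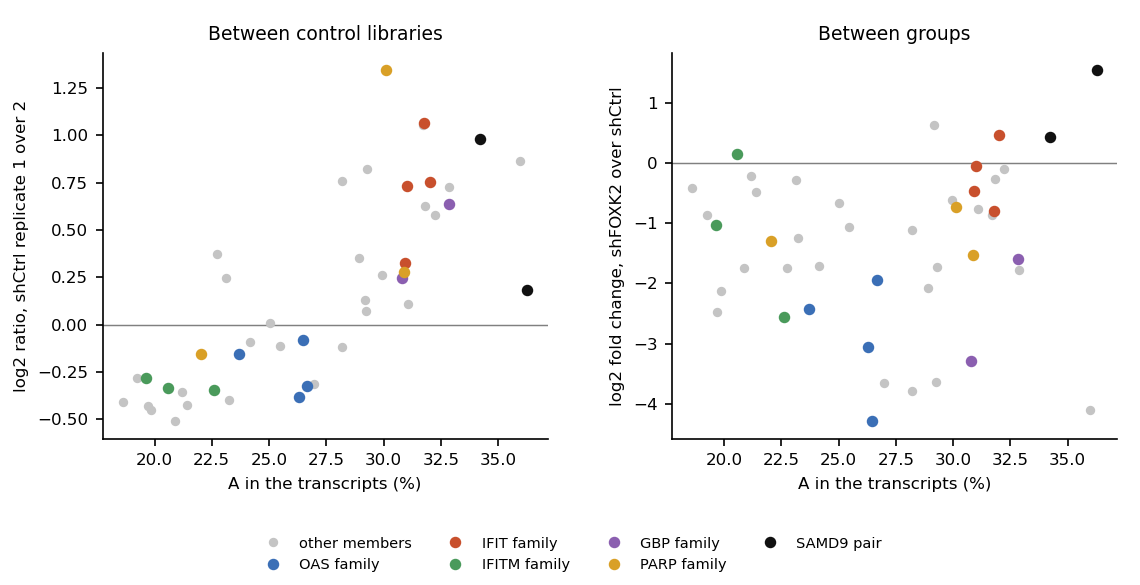
Each dot is 1 of the 45 genes, placed by the percent of A in its canonical transcript, with the log2 ratio between the 2 shCtrl libraries in the left panel and the log2 fold change of shFOXK2 over shCtrl in the right panel. On the left, IFIT, GBP and SAMD9 genes, all above 30% A, lie above 0, and OAS and IFITM genes lie below 0. On the right, OAS genes lie between −4.29 and −1.94 and IFIT genes between −0.80 and 0.45.

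Upstream of the 45 genes, a list of 79 pathway genes was read for context, of which 58 were tested, 30 (51.7%) fell and 4 (6.90%) rose, against 22.7% and 25.7% of all genes. The interferon genes themselves were nearly silent, since 8 of 14 had 0 counts in every library and 5 had at most 2. IFNE, an epithelial type I interferon, was the exception at 31 and 36 counts in shFOXK2 against 5 and 1 in shCtrl (log2 fold change 3.69 ± 0.57, adjusted p = 0.000208). Of 6 receptor chains 5 fell, among them IFNAR2, shared by the type I interferons, with 81 and 80 counts in shFOXK2 against 453 and 326 (log2 fold change −2.01 ± 0.31, adjusted p = 0.000178) and IFNGR2, of the interferon gamma receptor, with 511 and 692 counts against 2687 and 2155 (−1.78 ± 0.24, adjusted p = 8.33e-05). IFNGR1 fell by 1.04. IFNAR1 and IFNLR1 were called with less certainty, at −0.83 ± 0.32 (adjusted p = 0.0431) and −1.02 ± 0.36 (adjusted p = 0.0306). IFNAR1 did not pass with the replicate block (adjusted p = 0.0586), with library size alone, with at least 10 counts in every library or without shCtrl replicate 1 (−0.31) or shFOXK2 replicate 1. IFNLR1 did not pass with library size alone, with any composition offset or without shCtrl replicate 2 or shFOXK2 replicate 2 (−0.66). IL10RB did not pass. The kinase JAK1 fell by 1.63 (SE 0.24, adjusted p = 0.000146), whereas JAK2 and TYK2 did not pass (adjusted p = 0.366 and 0.321). STAT3, STAT5A and STAT5B also fell.

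Further regulatory genes moved in both directions. IRF2 fell by 1.34. IRF5 fell by 0.85 ± 0.32 (adjusted p = 0.0414), but did not pass in 6 of 11 alternatives, among them the replicate block (adjusted p = 0.0573) and the offsets, nor without shCtrl replicate 2 or shFOXK2 replicate 2 (−0.63). In contrast, IRF3, the factor activated directly by nucleic acid sensing, rose by 0.70 ± 0.25 (adjusted p = 0.0309), but did not pass with the replicate block (adjusted p = 0.0655), without a filter (adjusted p = 0.0852) or without shCtrl replicate 1 (0.48), shFOXK2 replicate 1 or shFOXK2 replicate 2. Of 17 sensing and adaptor genes tested, 8 (47.1%) fell and 1 (5.88%) rose, against 22.7% and 25.7% of all genes. DHX58, ADAR and the kinase gene IKBKE (log2 fold change −3.18 ± 0.28, adjusted p = 3.64e-06) were among the 8. TBK1, the closest relative of IKBKE, rose by 1.25 ± 0.28 (adjusted p = 0.00267), but did not pass with the GC offset (0.42, adjusted p = 0.112) and was at −0.11 with the A-content offset. STING1 also fell (−0.68 ± 0.23, adjusted p = 0.0287), but did not pass with the replicate block (adjusted p = 0.0803), with any composition offset or without shFOXK2 replicate 1 or 2. RIGI, the sensor RIG-I, did not pass, nor did MAVS, TLR3, CGAS, IFI16, TRIM25, RNF135 and EIF2AK2. Of 11 negative regulators 5 (45.5%) fell and 1 (9.09%) rose, against 22.7% and 25.7% of all genes, and 5 did not pass. Those that fell include SOCS1 (−2.47 ± 0.38, adjusted p = 0.000189) and SOCS3 (−2.10 ± 0.26, adjusted p = 4.38e-05). The phosphatase gene PTPN2 rose (1.17 ± 0.26, adjusted p = 0.00213), but did not pass with the A-content offset (0.37, adjusted p = 0.117).

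**Figure D4:**
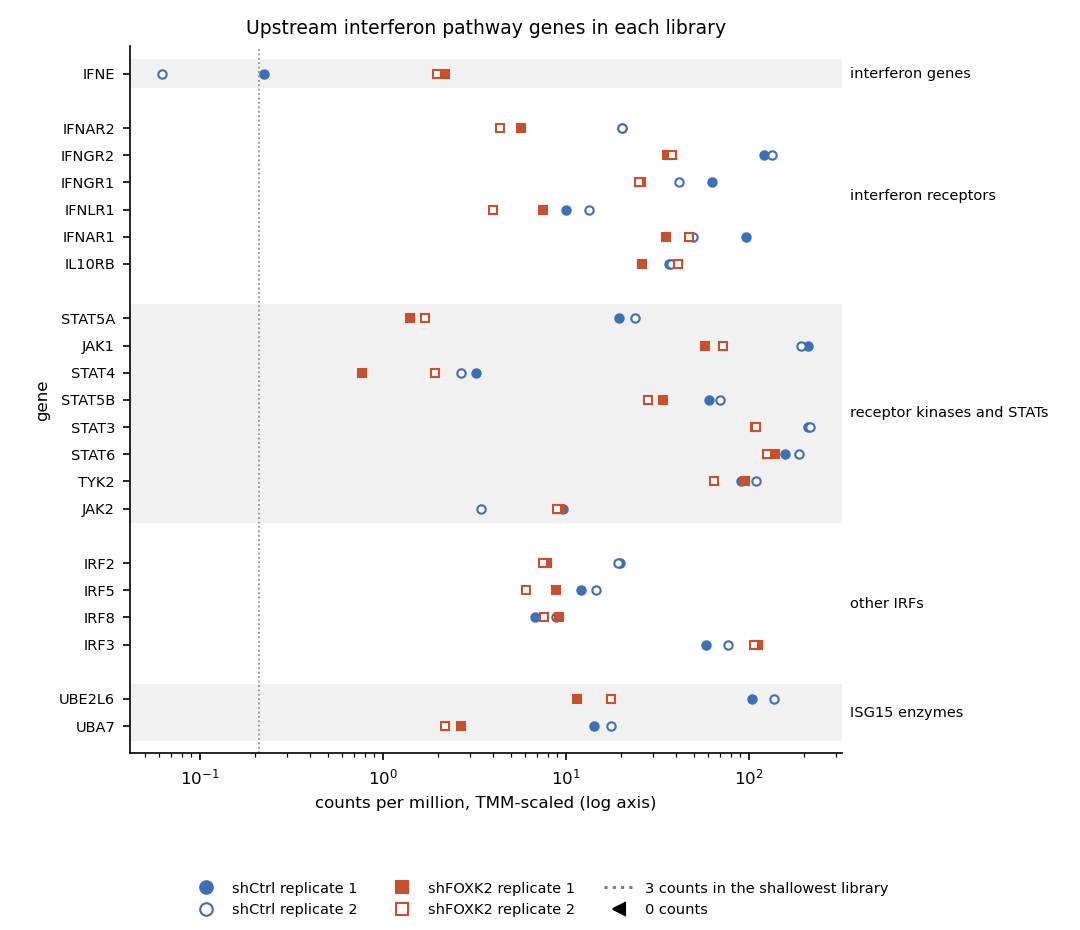
Each row is 1 of the tested genes shown, an interferon gene, receptor chain, kinase or STAT, other IRF or ISG15 enzyme, and each symbol is 1 library's level in TMM-scaled CPM on a log axis (circles, shCtrl; squares, shFOXK2; filled, replicate 1; open, replicate 2; dotted line, 3 counts in the shallowest library). IFNE and IRF3 lie higher in both shFOXK2 libraries, IRF3 with a call that some alternatives lose, and IFNAR2, IFNGR2, JAK1 and UBE2L6 lie lower in both.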

How the data were processed

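The authors aligned single-end reads of polyadenylated RNA to hg38 with STAR 2.5.2 and counted reads per gene with HTSeq, and the deposited values are raw counts per gene symbol for each library. The gene annotation and strand setting are not given in the sources used here, so genes that overlap on opposite strands may be miscounted. Intervals and floors cover counting error only.

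Titles gave the groups. After filterByExpr and TMM scaling, shFOXK2 was compared with shCtrl by the 2-sided quasi-likelihood test of edgeR 4.0.16 (R 4.3.3), and p-values were adjusted by Benjamini-Hochberg across the 16417 genes that passed the filter, with calls at 0.05. The size of each log2 fold change over the root of its F statistic gave the SE. With 2 libraries a group, an exact permutation test cannot go below p = 0.333, so p-values rest on the variance shared between genes and measure the spread between these libraries. Members, lists, motif spellings and tests were chosen with earlier results of these data known. All members were named, with counts for each of them. Named pathway genes were taken from those that passed the test or were interferon genes or receptors, and not all of these were named. GBP3, JAK2, TYK2, RIGI, the other sensing genes and family relatives named as not passing, and the overlapping genes named, were added after their values were seen. Composition and shared 50-base words came from GENCODE v44 transcripts, and 88.4% of tested genes had a composition value. Alternatives were a replicate block, DESeq2 1.42.0, the edgeR exact test, other scalings and filters, lowess offsets (span 0.2) on GC or A content, and leaving out each library. A block with crossed replicate numbers was added after seeing the data. Promoters came from RefSeq. Some genes of the lists are not reported here.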

Additional observations from a re-analysis of the deposited data

How the results depend on the processing

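The count of 27 members that fell ranged from 22 to 33 over 11 alternatives and from 27 to 30 with each library left out in turn, where the lone library is assumed to vary like the other group. The 22 came with at least 10 counts required in every library, which left 39 members to test. The count of 1 member that rose was 2 with that filter and 2 with crossed replicate numbers, 0 with the GC offset with replicate block, and 1 to 2 with a library left out. With the GC offset and with the A-content offset that 1 member was IFITM2 and not SAMD9. The share of promoters with the ISRE core, 69.4%, became 41.7% with the longer spelling. Offsets moved the median of all genes by 0.18 for GC content and 0.25 for A content, and testing without a filter moved it by −0.10.

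Of 489 member values under the alternatives, 451 kept direction and call, 24 gained a call, 3 lost it and 11 reversed. Values that reversed with the GC offset, the GC offset with replicate block and the A-content offset, in that order, were 0.11, 0.11 and 0.12 for BST2, 0.015, 0.020 and 0.060 for IRF9, −0.16, −0.14 and −1.05 for SAMD9L and 0.053, 0.016 and 0.021 for IL10RB. With the A-content offset alone, IFIT3 was −0.39, SAMD9 −0.56 and TBK1 −0.11. With a library left out, the values ran from −0.44 to 0.18 for IFI44, −1.44 to 0.25 for IFI44L, −0.22 to 0.87 for IFIT3, −0.44 to 0.33 for IFIT5, −0.045 to 0.25 for IFITM2, −1.32 to 0.060 for PARP14, −0.040 to 0.98 for SAMD9L and −0.53 to 0.12 for IL10RB. CMPK2 lost its call without shCtrl replicate 1 and PLSCR1 without either shFOXK2 library, and the other 25 members that fell kept theirs. The cause was not tested. Offsets act on composition by construction, and they also moved the median of all genes, by 0.18 for GC content and 0.25 for A content.

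The replicate numbers are not stated to pair samples, and the correlation of same-numbered deviations was −0.113. With the replicate block, 7270 genes passed in place of 7940, and 26 members fell and 1 rose, PLSCR1 being the member that lost its call. Crossed numbers gave 8350 genes, 29 and 2 members. At this depth, members under 10 counts in a library could show only large changes.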
